A study of Mus musculus with 37 samples.

Results

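The left ventricles of mice taken 7 days after adrenaline without cardiac arrest (Adr 7 days) were compared with those of mice that had no intervention (Naïve). The comparison used 9 of the 37 libraries of the study, 4 from Adr 7 days and 5 from Naïve. All 13245 genes with at least 0.5 FPKM (fragments scaled by gene length and by library size) in at least 4 of these 9 libraries were tested, out of 56748 genes in the table. All animals were C57BL/6J mice of both sexes, 8 to 10 weeks old, and all were anesthetized with 5% isoflurane. Adr mice were intubated and ventilated, received 40 µL of saline through the chest wall into the left ventricle and, 8 min later, 500 µL of adrenaline at 15 µg/mL by the same route. Naïve mice were neither intubated nor injected, so adrenaline, the 2 injections, ventilation and 7 days of recovery cannot be told apart in this comparison. The sampled tissue did not include the apex. Arrest mice, used here for reference, received potassium chloride, 8 min of asystole, chest compressions and the same adrenaline. Each library came from bulk ventricular tissue.

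Adrenaline acts on beta-adrenergic receptors of cardiomyocytes, which raise cyclic AMP and, through protein kinase A, increase calcium cycling and contraction. The same signal reaches the nucleus through CREB and switches on immediate early genes. Prolonged adrenergic drive is known for activating fibroblasts and matrix production and for drawing in immune cells, whereas a single exposure is brief.

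The 9 libraries held between 13.4 M and 15.7 M fragments (M, mega) counted on genes. By Xist and Ddx3y, Adr 7 days held 2 females and 2 males and Naïve 3 females and 2 males. Naïve replicate 4 stood apart, with 13475 genes above 0 against 16297 to 17600 in the other 8 libraries. It listed 1142 of the tested genes at 0, where the others listed 119 to 274, and 276 of those 1142 genes had at least 20 fragments in every other library. A value of 0 is therefore given below only as listed. The mean number of genes above 0 was 17110 ± 570 (SD, n = 4) in Adr 7 days and 15915 ± 1386 (SD, n = 5) in Naïve (exact two-sided permutation test, p = 0.0952). Fragments on the mitochondrial genome made up 24.3% ± 2.49 (SD, n = 4) in Adr 7 days and 27.4% ± 2.35 (SD, n = 5) in Naïve (exact two-sided permutation test, p = 0.0952). Longer genes stood lower in Adr 7 days. Across genes of at least 1 FPKM, which are not independent replicates, Spearman's correlation of a library's log2 ratio with gene length ran from -0.113 to 0.0055 in Adr 7 days and from -0.036 to 0.148 in Naïve (exact two-sided permutation test over libraries, p = 0.0476), and this call was lost in 8 of the 9 tests that left out 1 library. The numbers in the sample descriptions, whose meaning is not given, ran from 92 to 115 in Adr 7 days and from 116 to 127 in Naïve, so any order they stand for cannot be told apart from the groups.

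No gene passed the test at 7 days. With limma on log2(FPKM + 1) and Benjamini-Hochberg adjustment, 0 of 13245 genes (0%) reached an adjusted p of 0.05, and the lowest adjusted p was 0.193. limma voom on the recovered fragments also gave 0, with 921 genes at an unadjusted p of 0.05, and limma with array weights gave 0, with 959. At an unadjusted p of 0.05, 714 genes were counted, where a uniform spread of p-values would give 662. Of these, 432 (3.26% of the genes tested) were higher and 282 (2.13%) lower in Adr 7 days. The split of that count moved with the scaling. It was 735 higher to 148 lower when values were scaled by the fragments counted, 790 to 131 with limma voom on the recovered fragments, 411 to 321 after quantile normalization, and 340 to 400 once each library's trend with gene length was removed. The 4 Adr and 5 Naïve libraries did not overlap for 126 genes that were higher (0.951%) and 138 that were lower (1.04%).

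The precision of the comparison sets what could be seen. The median half-width of the 95% interval was 0.40 on the log2 scale, and it was under 1 for 97.2% of the genes. The median log2 difference over all genes was 0.011, the median absolute difference 0.13, and 68 genes differed by at least 1. Without Naïve replicate 4 the count at an adjusted p of 0.05 was again 0, with 975 genes at an unadjusted p of 0.05. The count was 1 without Naïve replicate 5 (H2bu2), 1 without Adr 7 days replicate 4 (a gene with no symbol), and 0 in each of the other 6 fits of that kind that left out a library.

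**Figure D1:**
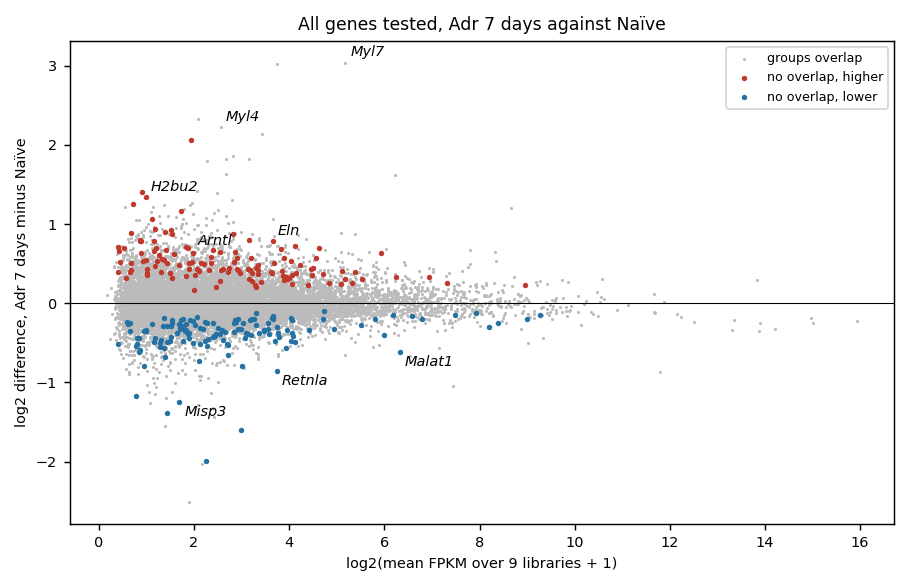
Log2 difference (Adr 7 days minus Naïve, y axis) against the log2 of the mean FPKM over the 9 libraries plus 1 (x axis) for each of the 13245 genes tested. Red and blue points are the 126 and 138 genes whose libraries did not overlap between the groups, grey points the rest. Myl7 and Myl4 lie far above 0 with overlapping groups.

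The lowest adjusted p belonged to Gm38317, a processed pseudogene, which is named here after its values were seen. It stood at 2.07, 3.38, 7.10 and 1.74 FPKM in the 4 Adr libraries and was listed at 0 in all 5 Naïve libraries. Its log2 difference was 2.06 ± 0.28 (SE, limma, adjusted p = 0.193). Reads of a processed pseudogene can come from its parent gene, so its value is uncertain. It passed the threshold with a pseudocount of 0.1 and in the fit over all libraries but Adr 3 days replicate 3.

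Among named protein-coding genes, the largest differences upward with no overlap were in genes of low level. H2bu2, a histone H2B gene, stood at 2.11, 1.59, 1.75 and 2.37 FPKM in Adr 7 days, and at 1.09 FPKM in Naïve replicate 5, with the other 4 Naïve libraries listed at 0. This was a log2 difference of 1.34 ± 0.24 (SE, limma, adjusted p = 0.785). Its Adr values rested on 15 to 22 fragments each. Replicate 5 alone set the Naïve level, and without it the difference was 1.56 with an adjusted p of 0.0348 (limma).

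Mier2, a partner of histone deacetylases, and Ebp, a sterol isomerase of cholesterol synthesis, were also apart. Mier2 stood at 1.52, 2.40, 2.85 and 2.82 FPKM in Adr 7 days against 0.895, 1.18, 0.66, 0.458 and 1.09 FPKM in Naïve. The difference was 0.87 ± 0.19 (SE, limma, adjusted p = 0.812). Every Adr library lay above every Naïve library, and the lowest Adr value was that of replicate 1. Ebp stood at 8.12, 8.69, 7.07 and 4.98 FPKM in Adr 7 days against 3.93, 2.70, 4.28, 2.48 and 4.05 FPKM in Naïve. Its difference was also 0.87 ± 0.19 (SE, limma, adjusted p = 0.812). Adr replicate 4 came closest to the Naïve range. Both genes passed the threshold in the fit over all libraries but Adr 3 days replicate 3 (adjusted p = 0.0467, limma).

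Eln, which encodes elastin, was the best measured of these genes. It stood at 18.5, 11.6, 9.87 and 11.1 FPKM in Adr 7 days and at 6.10, 7.82, 7.26, 8.58 and 4.76 FPKM in Naïve, on 519 to 2318 fragments a library. The log2 difference was 0.78 ± 0.20 (SE, limma, adjusted p = 0.838). Adr replicate 1 was the highest library, and without it the difference was 0.60. Svbp, the small partner of the vasohibin enzymes that remove tyrosine from tubulin, stood at 16.3 to 19.0 FPKM in Adr 7 days against 6.35 to 13.9 in Naïve, a log2 difference of 0.72. Kctd17, an adaptor of a cullin ubiquitin ligase, stood at 8.95 to 11.7 FPKM against 3.24 to 8.02, a log2 difference of 0.80.

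C5ar2, a receptor for the complement fragment C5a, stood at 1.76, 1.34, 1.11 and 1.04 FPKM in Adr 7 days against 0.0897, 0.424, 0.94, 0 and 0.417 FPKM in Naïve. The difference on the log2 scale was 0.78, and 0.67 without Naïve replicate 4. Srrd, Krtcap3, Exoc3l2 and Pafah1b3 were likewise apart at under 3 FPKM, with log2 differences of 1.16, 1.06, 0.92 and 0.79. Each was listed at 0 in Naïve replicate 4, and without that library the differences were 0.99, 0.94, 0.80 and 0.68. Srrd, Krtcap3 and Pafah1b3 were listed at 0 in Naïve replicate 2 as well. Spindoc completed the 12 genes with a difference of 0.71. The adjusted p of the 12 genes lay between 0.785 and 0.842 (limma).

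**Figure D2:**
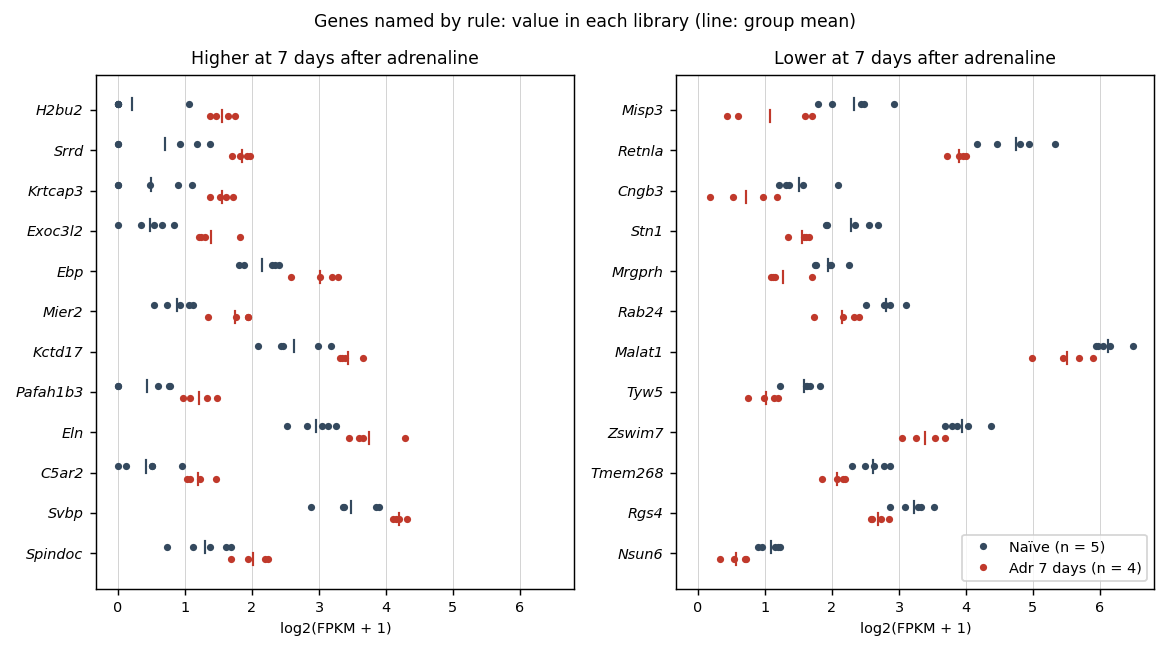
Value of the 24 genes named by rule in each library, on the log2(FPKM + 1) scale, with 12 higher genes on the left and 12 lower genes on the right. Red points are the 4 Adr 7 days libraries, dark points the 5 Naïve libraries and vertical lines the group means. No gene's groups overlap, which the rule required.

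Among the lower genes, Retnla encodes a secreted protein of resident and alternatively activated macrophages. It stood at 13.8, 14.98, 14.5 and 12.1 FPKM in Adr 7 days and at 21.0, 29.6, 39.1, 27.0 and 17.0 FPKM in Naïve. The log2 difference was -0.85 ± 0.20 (SE, limma, adjusted p = 0.812). The Adr libraries lay close together and below a wide Naïve range. Macrophage markers as a list stood on the other side of 0. The list of 17 tested monocyte and macrophage genes had a median log2 difference of 0.10, with 14 above 0. That median was 0.033 without Adr replicate 1, with 11 above 0, and 0.22 without Naïve replicate 4. Lyz2, the macrophage lysozyme, stood at 561, 445, 325 and 290 FPKM in Adr 7 days against 247, 242, 351, 441 and 308 in Naïve, and the groups overlapped. In bulk tissue, fewer cells of a type and less RNA per cell cannot be told apart.

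Malat1, an abundant nuclear long non-coding RNA, stood at 30.6, 50.5, 42.6 and 58.8 FPKM in Adr 7 days against 61.8, 88.7, 69.7, 65.0 and 60.5 FPKM in Naïve. Its log2 difference was -0.61 ± 0.18 (SE, limma, adjusted p = 0.842), and -0.44 without Adr replicate 1. The closest libraries were 58.8 and 60.5 FPKM. Rgs4, which speeds the shut-off of G proteins behind Gi- and Gq-coupled receptors, stood at 4.97, 5.65, 6.22 and 5.04 FPKM in Adr 7 days against 9.08, 8.76, 7.52, 10.5 and 6.26 FPKM in Naïve. The log2 difference came to -0.53 ± 0.15 (SE, limma, adjusted p = 0.838), and Adr replicate 3 all but met Naïve replicate 5.

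Among these 12 genes Misp3 had the largest downward difference, -1.25 ± 0.32 (SE, limma, adjusted p = 0.838). It stood at 0.504, 0.346, 2.03 and 2.25 FPKM in Adr 7 days and at 2.47 to 6.62 FPKM in Naïve, with Adr replicates 1 and 2 well below replicates 3 and 4. Stn1, a subunit of the complex that completes telomere replication, stood at 1.54 to 2.16 FPKM against 2.75 to 5.45, and Rab24, a small GTPase linked to autophagy, at 2.31 to 4.27 FPKM against 4.69 to 7.59. Cngb3, Mrgprh, Tyw5, Zswim7, Tmem268 and Nsun6 completed the lower genes, with log2 differences from -0.80 to -0.52. Among these, Mrgprh encodes an orphan receptor, Nsun6 an RNA cytosine methyltransferase and Zswim7 a factor of homologous recombination. The adjusted p of the 12 lower genes lay between 0.812 and 0.842 (limma).

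The libraries carried the RNA of heart muscle. Myh6, the main myosin heavy chain of the adult mouse heart, stood at 1167 to 1622 FPKM in Adr 7 days and at 1440 to 1864 in Naïve. The tested markers of cardiomyocytes had a median log2 difference of -0.087 over 12 genes, those of endothelial cells 0.18 over 11, and those of smooth muscle and pericytes -0.12 over 11. Single libraries moved these medians. Without Adr replicate 1 they were -0.017, 0.17 and -0.072, and without Adr replicate 2 they were -0.060, 0.099 and -0.20. Markers of lung, liver and thymus were below the filter in every case, and the summed level of those 11 genes was 0 to 3.25 FPKM.

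Atrial muscle genes separated the Adr libraries from one another. Myl7, the atrial regulatory myosin light chain, stood at 24.7, 5.69, 99.0 and 120 FPKM in Adr 7 days and at 3.03, 3.31, 2.58, 3.74 and 6.17 FPKM in Naïve. Its log2 difference of 3.04 ± 0.70 (SE, limma, adjusted p = 0.812) was the largest of all genes tested. Adr replicates 1, 3 and 4 were high, and replicate 2 lay inside the Naïve range. Myl4, the atrial essential light chain, followed the same order at 3.18, 0.382, 15.5 and 19.4 FPKM against 0 to 0.753 FPKM in Naïve, a log2 difference of 2.23. Dkk3, a secreted glycoprotein of the Dickkopf family that is also listed among the atrial genes, stood at 9.86, 2.13, 12.5 and 9.49 FPKM against 1.204 to 5.80 FPKM in Naïve, a log2 difference of 1.39. The same replicate 2 was the low one for all 3 genes.

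Summed over the 7 listed atrial genes, the level was 43.5 to 218 FPKM in Adr 7 days and 26.2 to 49.9 FPKM in Naïve. Of the 5 atrial genes tested, 4 had a positive log2 difference and 1 a negative one, at -0.14. Bmp10, a defining atrial marker, was listed at 0 in all 9 libraries. Nppa, the atrial natriuretic peptide, which stressed ventricle also makes, kept another order, with 77.4, 23.1, 18.3 and 41.2 FPKM in Adr 7 days against 24.2, 10.2, 29.1, 22.8 and 12.2 FPKM in Naïve. This was a log2 difference of 0.87 ± 0.41 (SE, limma, adjusted p = 0.869), and 0.48 without Adr replicate 1. The related peptide Nppb overlapped fully, at 346 to 429 FPKM against 192 to 534. Myl7 varied widely within other groups too. It ran from 0.461 to 445 FPKM in Adr 1 day, with a median of 51.8, and its highest library reached 25.4 FPKM in Adr 0.5 days, 225 in Adr 3 days and 157 in Arrest 7 days, while no library of an earlier Arrest time exceeded 7.69. The part that atrial RNA has in the other differences reported here was not tested.

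**Figure D3:**
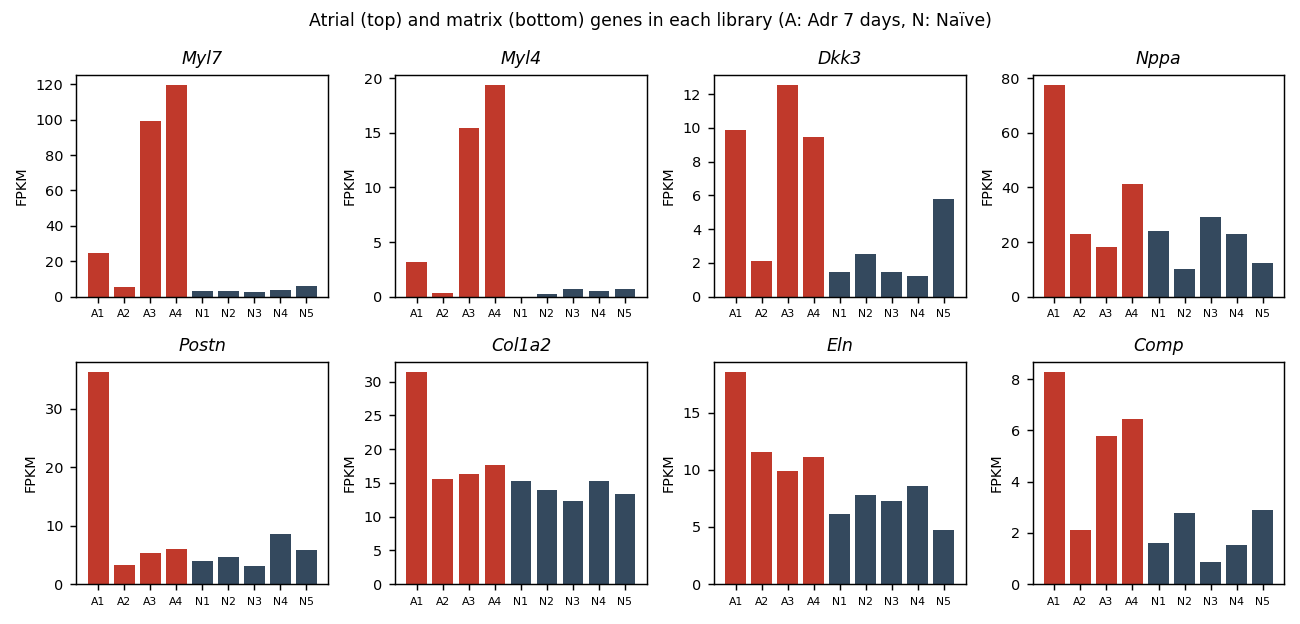
FPKM of 4 atrial genes (top row) and 4 matrix genes (bottom row) in each library, with A1 to A4 the Adr 7 days replicates and N1 to N5 the Naïve replicates. Myl7, Myl4 and Dkk3 are high in A1, A3 and A4 but not in A2, and Postn is high in A1 alone at 36.2 FPKM.

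Most fibroblast and matrix genes had positive log2 differences, with smaller medians without Adr replicate 1, and the list medians of single libraries overlapped. All 10 listed fibroblast markers had a positive log2 difference, with a median of 0.32. Of 40 tested matricellular and myofibroblast genes 37 were above 0, with a median of 0.24, and of 21 collagens 20 were above 0, with a median of 0.18. Over all genes tested 52.4% were above 0. None of these members passed the test. At an unadjusted p of 0.05, 2 fibroblast markers, 5 matricellular genes and 2 collagens were higher and none was lower, against 3.26% higher and 2.13% lower over all genes tested. Without Adr replicate 1, the medians were 0.21, 0.10 and 0.10, and the counts above 0 were 8 of 10, 28 of 40 and 16 of 21. Genes of a list are not independent replicates, so list medians were also taken per library, relative to each gene's mean over the 9 libraries. For fibroblast markers they were 0.65, 0.0066, 0.057 and -0.12 in Adr 7 days and -0.38 to -0.012 in Naïve. For matricellular genes they were 0.57, -0.10, 0.12 and -0.052 against -0.21 to -0.00022. For collagens they were 0.27, 0.042, 0.061 and -0.11 against -0.20 to 0.020.

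Postn, periostin of activated fibroblasts, stood at 36.2, 3.28, 5.36 and 5.92 FPKM in Adr 7 days against 3.86, 4.70, 3.17, 8.59 and 5.81 FPKM in Naïve. Its log2 difference was 0.62 ± 0.53 (SE, limma, adjusted p = 0.931), and it was -0.057 without replicate 1. Replicate 1 was the only library above 10 FPKM. Col1a2, a chain of type I collagen, stood at 31.4, 15.6, 16.4 and 17.7 FPKM against 15.3, 14.0, 12.3, 15.3 and 13.4 FPKM, a log2 difference of 0.45 ± 0.18 (SE, limma, adjusted p = 0.869). Its groups did not overlap, but replicates 2 to 4 exceeded the highest Naïve library by little, and the difference without replicate 1 was 0.23. Col1a1, the partner chain, stood at 43.2, 21.4, 22.4 and 17.5 FPKM against 15.4 to 20.7 and overlapped.

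Some matrix genes were high beyond replicate 1. Comp, a matrix protein of cartilage and fibrotic tissue, stood at 8.26, 2.10, 5.79 and 6.46 FPKM in Adr 7 days against 1.62, 2.78, 0.872, 1.51 and 2.88 FPKM in Naïve. That gave a log2 difference of 1.13 ± 0.32 (SE, limma, adjusted p = 0.838). It was high in replicates 1, 3 and 4 and within the Naïve range in replicate 2, as Myl7 was. Htra3, a secreted serine protease, stood at 39.9 to 47.5 FPKM against 26.8 to 42.0, a log2 difference of 0.44. Tgfb1, the transforming growth factor that activates fibroblasts, stood at 6.65 to 10.6 FPKM against 4.804 to 7.21, a log2 difference of 0.38.

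Immune gene lists held no call. Of the 12 neutrophil markers only 4 passed the filter, with a median log2 difference of 0.34 and 3 above 0. Without Naïve replicate 4 that median was 0.22. The summed level of the 12 was 2.44 to 12.5 FPKM in Adr 7 days and 0 to 12.2 FPKM in Naïve. Ly6g and Elane, both among these 12, were listed at 0 in all 9 libraries. S100a8, a neutrophil calcium-binding protein, stood at 1.31, 2.99, 0 and 6.86 FPKM against 0.645, 1.54, 0, 0 and 0.643 FPKM, and the groups overlapped. T, B and NK cell markers summed to 3.60 to 7.02 FPKM against 0 to 5.09.

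Chemokine and complement lists had medians above 0, but the list medians of single libraries overlapped. Relative to each gene's mean over the 9 libraries, chemokine medians were 0.051 to 0.18 in Adr 7 days and -0.28 to 0.15 in Naïve. Complement medians were 0.54, 0.069, -0.025 and -0.098 in Adr 7 days and -0.38 to 0.17 in Naïve. Of 22 tested chemokine genes 14 were above 0, with a median log2 difference of 0.18, beside 52.4% above 0 over all genes tested. At an unadjusted p of 0.05, 4 were higher and none lower, beside 3.26% and 2.13% of all genes. Without Adr replicate 1 the median was 0.10, with 13 of 22 above 0. Ccl5, which draws T cells, stood at 1.55, 1.27, 0.522 and 2.14 FPKM in Adr 7 days against 0.533, 0.328, 0.634, 0 and 0 FPKM in Naïve. Adr replicate 3 fell inside the Naïve range, and the log2 difference was 0.85 ± 0.25 (SE, limma, adjusted p = 0.842). Of 18 complement genes 16 were above 0, with a median of 0.24. Without Adr replicate 1 the median was 0.17, with 13 of 18 above 0. The largest of these differences, 1.82, was that of Cfd, whose groups overlapped. Cfd is also listed among the adipocyte genes, of which 4 were tested, with a median of 0.39 and 3 above 0. Cfp, properdin, which stabilizes the alternative convertase, stood at 8.16, 10.9, 7.01 and 4.8005 FPKM against 4.82, 6.13, 3.68, 1.86 and 3.90 FPKM. The log2 difference came to 0.80 ± 0.27 (SE, limma, adjusted p = 0.855). The interferon response genes had a median of -0.011 over 30 genes, with 14 above and 16 below 0 and a sign that changed under 8 of the 21 alternatives, and the acute phase and metallothionein genes -0.0025 over 15.

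**Figure D4:**
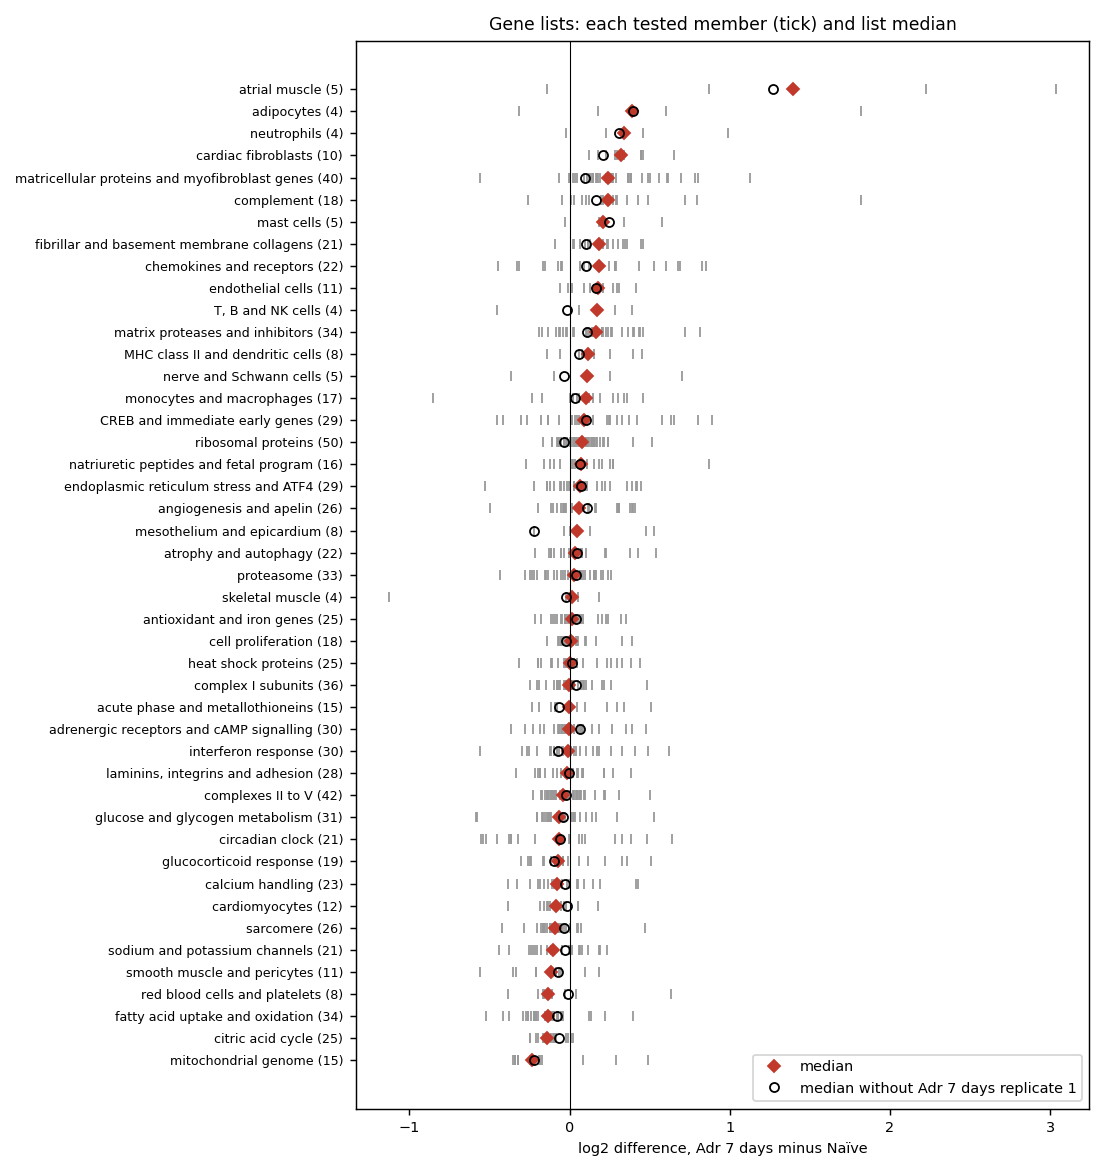
Log2 difference (Adr 7 days minus Naïve, x axis) of each tested member (grey ticks) of 45 gene lists, with the list median (red diamonds) and the median without Adr 7 days replicate 1 (open circles). The number of tested members stands in brackets. Medians run from -0.23 for the mitochondrial genome to 1.39 for atrial muscle, and those of the fibroblast, collagen and matricellular lists move toward 0 when replicate 1 is left out.

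The adrenergic genes themselves were centred on 0. Over 30 tested receptors, G proteins, cyclases, phosphodiesterases and kinase A genes the median log2 difference was -0.0051, with 15 above and 15 below, and its sign changed under 12 of the 21 alternatives. Adrb1, the main cardiac beta receptor, stood at 4.44, 5.56, 5.97 and 6.12 FPKM in Adr 7 days against 4.63, 3.74, 3.87, 5.33 and 6.35 FPKM in Naïve. The ranges overlapped, and the 95% interval of the difference ran from -0.17 to 0.54 on the log2 scale. Arrb1, the beta-arrestin that uncouples these receptors, stood at 4.89 to 6.81 FPKM against 3.30 to 5.79, a log2 difference of 0.39.

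Of 29 CREB targets and immediate early genes, 5 were higher and 2 lower at an unadjusted p of 0.05, where all genes gave 3.26% and 2.13%. Their median log2 difference was 0.092. Jund, an AP-1 subunit, stood at 30.1, 39.9, 44.6 and 38.5 FPKM in Adr 7 days against 20.2, 27.8, 36.6, 22.0 and 16.6 FPKM in Naïve. Its log2 difference was 0.65 ± 0.20 (SE, limma, adjusted p = 0.842), with Naïve replicate 3 inside the Adr range. Egr2, a zinc-finger factor, stood at 1.96, 1.46, 1.16 and 0.837 FPKM against 0.263, 0.222, 0, 0 and 1.68 FPKM, and Naïve replicate 5 lay among the Adr libraries.

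The circadian clock genes diverged in direction. Arntl, which encodes BMAL1, binds E-box sequences with CLOCK and turns on the Per, Cry, Rev-erb and PAR bZIP genes, while the Rev-erb proteins shut Arntl off through ROR elements. Arntl stood at 4.24, 4.01, 3.09 and 3.90 FPKM in Adr 7 days against 1.78, 1.84, 1.93, 2.23 and 2.67 FPKM in Naïve. The difference on the log2 scale was 0.64 ± 0.14 (SE, limma, adjusted p = 0.812). Every Adr library lay above every Naïve library, and the difference held between 0.60 and 0.72 over the alternatives on this scale. Nr1d2, which encodes REV-ERB beta, stood at 10.2, 9.72, 17.0 and 13.3 FPKM against 19.6, 19.4, 18.4, 17.0 and 17.0 FPKM. That gave a log2 difference of -0.54 ± 0.15 (SE, limma, adjusted p = 0.838), and Adr replicate 3 met the lowest Naïve libraries. Tef, a PAR bZIP output factor, stood at 10.8, 5.80, 12.5 and 9.94 FPKM against 15.3, 16.3, 16.8, 12.7 and 9.88 FPKM, a log2 difference of -0.52 ± 0.21 (SE, limma, adjusted p = 0.869). Naïve replicate 5 was the one that overlapped. The hour of tissue collection is not given in the sources used here, and its part in these differences was not tested. Over the 21 tested clock genes, 2 were higher and 3 lower at an unadjusted p of 0.05, beside 3.26% and 2.13% of all genes. Of the 21, 1 was apart upward and 0 downward, beside 0.951% and 1.04% of all genes.

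The promoter windows of these 3 genes were read from RefSeq (GRCm38.p6, 250 bases before to 50 after each start) because the clock proteins act on one another through such sequences, and all 3 genes matched. The letters CACGTG (E-box) and AGGTCA (the core of a ROR element) were searched on both strands. E-box letters were found in 7.15% of all 32851 windows and AGGTCA in 16.3%. Both Tef starts held an E-box, at 127 and 138 bases before the start, and Nr1d2 held AGGTCA 77 bases before its start. Of the 2 Arntl windows neither held an E-box, and 1 held AGGTCA, after the start. The capitals mark the motif in these stretches, written in the direction of the gene.
Tef, first start, chr15:81802516-81802581, plus strand: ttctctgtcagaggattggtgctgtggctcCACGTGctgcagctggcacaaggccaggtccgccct
Tef, second start, chr15:81811246-81811311, plus strand: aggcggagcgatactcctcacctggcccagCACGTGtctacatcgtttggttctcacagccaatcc
Nr1d2, chr14:18239148-18239213, minus strand: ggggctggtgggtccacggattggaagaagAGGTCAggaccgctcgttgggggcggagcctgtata

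Most citric acid cycle, fatty acid and sarcomere genes had slightly negative log2 differences, but the list medians of single libraries overlapped. Of 25 citric acid cycle genes 23 were below 0, with a median log2 difference of -0.14, and of 34 genes of fatty acid uptake and oxidation 30 were below 0, with a median of -0.14. Of 26 sarcomere genes 21 were below 0, with a median of -0.091. None passed the test. At an unadjusted p of 0.05 these lists held 2, 5 and 2 lower genes and no higher ones, beside 2.13% lower and 3.26% higher over all genes tested, of which 52.4% were above 0. Without Adr replicate 1 the medians were -0.064, -0.077 and -0.036, and 14 of 26 sarcomere genes were below 0. Over all alternatives, scaling included, they ran from -0.18 to -0.064, from -0.19 to -0.066 and from -0.14 to -0.021. Per library, citric acid cycle medians were -0.23, -0.081, -0.0097 and 0.085 in Adr 7 days and -0.035 to 0.12 in Naïve. Those of fatty acid genes were -0.34, 0.0071, -0.057 and 0.091 against 0.014 to 0.18. Those of sarcomere genes were -0.18, -0.060, -0.012 and 0.11 against -0.069 to 0.18.

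Cs, citrate synthase, stood at 129, 145, 151 and 173 FPKM in Adr 7 days against 174, 176, 180, 166 and 164 FPKM in Naïve. Its log2 difference was -0.21, with replicate 4 inside the Naïve range. Slc27a1, a fatty acid transporter, stood at 13.5, 14.2, 15.03 and 15.3 FPKM against 14.8, 25.2, 20.4, 18.3 and 18.3 FPKM. This was a log2 difference of -0.38 ± 0.14 (SE, limma, adjusted p = 0.869), with Naïve replicate 1 inside the Adr range. Ppargc1a, the coactivator of mitochondrial biogenesis, stood at 6.91, 10.0004, 8.28 and 10.2 FPKM against 15.6, 12.5, 11.8, 8.96 and 11.9 FPKM, a log2 difference of -0.41, with Naïve replicate 4 inside the Adr range.

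Ttn, titin, stood at 15.3, 19.7, 22.5 and 24.9 FPKM in Adr 7 days against 29.7, 30.3, 28.5, 20.8 and 29.7 FPKM in Naïve. The difference on the log2 scale was -0.42 ± 0.15 (SE, limma, adjusted p = 0.869), and Naïve replicate 4 was the library that fell among the Adr values. With the length trend of each library removed its difference was -0.19. Myom2, an M-band protein, and Mylk3, the cardiac myosin light chain kinase, did not overlap. Myom2 stood at 53.0 to 58.5 FPKM against 61.2 to 67.9, a log2 difference of -0.20, and Mylk3 at 96.7 to 105 FPKM against 109 to 122, a log2 difference of -0.16. The 15 genes of the mitochondrial genome had a median of -0.23, and -0.030 after quantile normalization. Complex I subunits were centred on 0, with a median of -0.00067 over 36 genes and 18 on each side.

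Over the 45 gene lists with a tested member, 15 medians were above 0.1 on the log2 scale, 6 were below -0.1 and 24 lay between, and no list held a gene that passed the test. Ribosomal protein genes had a median of 0.076 with 37 of 50 above 0, which became -0.037 with 19 of 50 above 0 without Adr replicate 1. Heat shock proteins were centred on 0 with a median of 0.0045 over 25 genes, and the proteasome had 0.026 over 33. Genes of endoplasmic reticulum stress had 0.068 over 29, glucocorticoid response genes -0.072 over 19 and proliferation genes 0.0098 over 18. The markers of mesothelium and epicardium, which cover the heart's surface, summed to 28.9 to 105 FPKM in Adr 7 days and 12.3 to 89.1 FPKM in Naïve. Their spread within each group was wide, and the median of 0.046 turned to -0.22 without Adr replicate 1.

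The 24 genes named by rule were then set against the groups nearest to Adr 7 days, Arrest at the same day and Adr at 1 day, in limma on all 37 libraries. None of the 24 passed the test against Arrest 7 days (lowest adjusted p = 1.00) or against Adr 1 day (lowest adjusted p = 0.131, Malat1). The levels in other groups are given for description, and every difference from Naïve shares the same 5 Naïve libraries. Mier2 had means of 2.02, 1.80, 2.21 and 2.40 FPKM from the first to the last of the 4 Adr times and 2.39 in Arrest 7 days, against 0.856 in Naïve. Retnla had means of 10.1, 9.48, 11.6 and 13.9 FPKM over the same times and 12.7 in Arrest 7 days, against 26.8 in Naïve. Ebp had means of 5.82, 6.25, 6.72 and 7.22 FPKM and 5.68 in Arrest 7 days, against 3.49 in Naïve. The Naïve mean was the lowest of these 6 group means for Mier2, Ebp and each of the other higher genes named by rule. For Retnla and most other lower genes it was the highest, but not for Malat1, Rab24 and Zswim7. These genes were chosen by rule on the same Naïve values.

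Malat1 followed another course, with means of 111, 106, 47.6 and 45.6 FPKM over the 4 Adr times, 77.6 in Arrest 7 days and 69.1 in Naïve. Its log2 difference of Adr 7 days from Adr 1 day was -1.16 ± 0.30 (SE, limma, adjusted p = 0.131). Arntl had means of 2.90, 1.93, 2.56 and 3.81 FPKM in Adr, 3.08 in Arrest 7 days and 2.09 in Naïve.

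**Figure D5:**
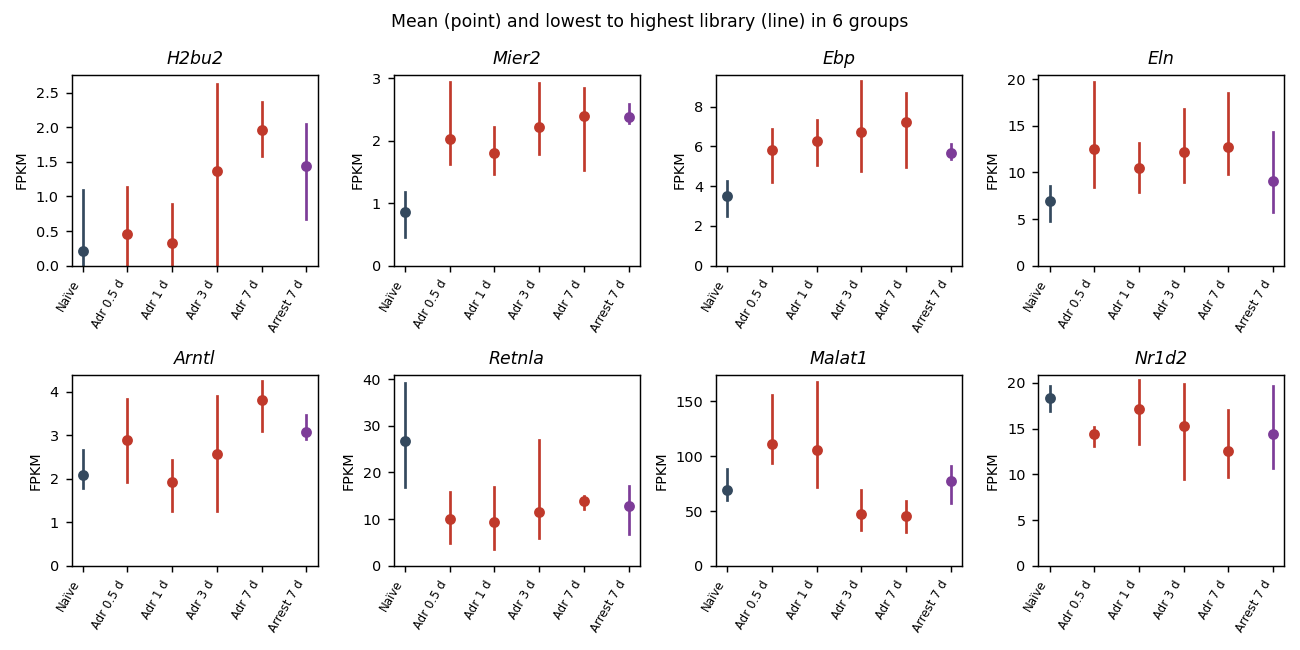
Mean FPKM (points) and lowest to highest library (lines) of 8 genes in Naïve, the 4 Adr days and Arrest 7 days, with 5 libraries in Naïve and 4 in each other group, Adr 3 days including its replicate 3. The Naïve mean is the lowest of the 6 for H2bu2, Mier2, Ebp and Eln and the highest for Retnla and Nr1d2. Malat1 is above Naïve at 0.5 and 1 day and below it at 3 and 7 days of Adr.

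Over all genes, 1 gene (0.00755%) passed the test between Adr 7 days and Arrest 7 days, and 12 genes (0.0906%) between Adr 7 days and Adr 1 day, of which 2 were higher and 10 lower at 7 days. Without Adr 3 days replicate 3, whose mitochondrial share was 9.36%, the second count was 84 (0.634%). The paper states that a poor-quality Adr library of that same day was excluded, and its text does not say which replicate. The single gene against Arrest 7 days was Chuk, which encodes IKK alpha, a kinase of NF-kB signalling, and it is named after its values were seen. Chuk stood at 3.65, 3.97, 3.96 and 4.97 FPKM in Adr 7 days against 7.42, 5.87, 7.26 and 7.34 FPKM in Arrest 7 days. The log2 difference was -0.64 ± 0.11 (SE, limma, adjusted p = 0.0394), and no library overlapped. The call held when Adr 7 days replicate 4 or Arrest 7 days replicate 2 was left out and was lost, with an adjusted p between 0.174 and 0.317 (limma), when any of the other 6 was left out. In those 6 fits the log2 difference lay between -0.62 and -0.59. Against Adr 1 day, at 6.86, 5.57, 6.63 and 6.57 FPKM, the difference was -0.53 ± 0.11 (SE, limma, adjusted p = 0.0488). Against Naïve, at 6.14, 6.79, 6.45, 4.83 and 7.10 FPKM, it was -0.50 (limma, adjusted p = 0.838), with Naïve replicate 4 just below Adr replicate 4. Without Adr 3 days replicate 3, the adjusted p of Chuk was 0.0433 against Arrest 7 days and 0.0183 against Adr 1 day (limma).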

How the data were processed

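RNA from left ventricle was sequenced as paired reads. The authors aligned reads with HISAT2 2.0.5 and deposited FPKM values for 37 libraries in 9 groups; the counting tool, genome build and annotation are not given in the sources used here. No column was left unmapped. FPKM times gene length was a whole multiple of 1 step for 100% of values, within 0.1, which gave back the fragments of each library; the denominators implied were 0.963 to 1.07 times the fragments counted, 1.01 to 1.07 in Adr 7 days and 0.963 to 1.02 in Naïve, so the deposited FPKM values carry a scaling beyond depth. The deposited gene length was used in bases as listed.

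Values were tested as log2(FPKM + 1) with limma 3.58.1 in R 4.3.3, with a mean-variance trend, 2 group means and Benjamini-Hochberg adjustment at 0.05; a fold on this scale understates the change of low genes. The authors' study used DESeq2; here limma was run on the deposited FPKM values, and limma voom on the recovered fragments as an alternative. Genes needed 0.5 FPKM in at least 4 of 9 libraries. Library measures were compared by exact permutation tests, whose smallest two-sided p for 4 against 5 is 0.0079. The scripts were tested on simulated data. The limma p-values rest on the spread between libraries within groups, pooled over the groups in the fit and drawn toward the trend over genes. In the fit on 37 libraries that spread was pooled over all 9 groups, with Adr 3 days replicate 3 kept. All pairs of libraries in a group differed by more than sampling noise (chi-square of at least 12.2 per gene).

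Up to 12 genes per direction were named by the largest log2 difference among those with an unadjusted p of at most 0.01, a mean of at least 1 FPKM in 1 group and no overlap; predicted genes, pseudogene-like symbols and sex-linked markers were counted but not named. Of 93 genes that met this, 58 were higher and 35 lower, and 12 and 7 of them had such symbols. In each of 46 gene lists the 3 tested members with the smallest unadjusted p and the first 2 listed could be named; 1006 of 1023 listed symbols were in the table and 874 listed genes were tested. The comparison, the members and the lists were chosen with earlier results of these data known. Alternatives covered scaling, pseudocount, filter, libraries in the fit, weights, sex, pairing, gene length and each library left out.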

Additional observations from a re-analysis of the deposited data

Results flagged for a closer look

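A library far from the rest of its group was found in 6 of 140 groups of 4 or 5 values examined, where chance alone gives about 1 in 20. The number of genes above 0 was 13475 in Naïve replicate 4, below all other libraries. H2bu2 stood at 1.09 FPKM in Naïve replicate 5, with the other Naïve libraries listed at 0, and Egr2 at 1.68 FPKM in the same library. Ttn stood at 20.8 FPKM in Naïve replicate 4, below the other 4 Naïve libraries. Exoc3l2 stood at 2.55 FPKM in Adr 7 days replicate 1 and Mrgprh at 2.25 FPKM in Adr 7 days replicate 4, each above the other 3 libraries.

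Chuk differed between adrenaline alone and arrest at 7 days, with a log2 difference of -0.64 (Adr minus Arrest) that passed the test in limma on 37 libraries (adjusted p = 0.0394). It was lower in 4 of 4 Adr 7 days libraries than in any Arrest 7 days library. The call was lost in most of the fits that left out 1 of these libraries.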

How the results depend on the processing

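The count of genes past the threshold against Naïve was 0 in limma and stayed 0 under 10 of the 12 alternatives other than leaving out 1 library; it was 1 with a pseudocount of 0.1 and 3 over all libraries but Adr 3 days replicate 3 (Ebp, Mier2 and Gm38317). With 1 library left out it ran from 0 to 1. The count at an unadjusted p of 0.05 ran from 510 to 1027 over the 21 alternatives, the highest with no filter on 23414 genes. The replicate numbers did not pair the libraries, since the deviations of same-numbered libraries correlated at 0.0025 to 0.04; with the replicate block over replicates 1 to 4, which drops Naïve replicate 5, the count was 0, with 735 at an unadjusted p of 0.05. The difference in the correlation with gene length, -0.13, was -0.13 over genes of at least 5 FPKM, no longer past the threshold, and ran from -0.15 to -0.10 with 1 library left out. The difference from Adr 1 day went from 12 to 84 genes without Adr 3 days replicate 3, and the difference from Arrest 7 days ran from 0 to 1 gene with 1 library left out; both alternatives were chosen after seeing the data. Of 1378 values of single genes under the alternatives, 1374 kept their direction and their side of the threshold. The choice of genes largely set this count. Genes named by rule had no overlap, so leaving out 1 library could not reverse them. All of the genes fell short of the threshold in the main fit. H2bu2 passed at 1.56 without Naïve replicate 5, Ebp and Mier2 passed at 0.87 over all libraries but Adr 3 days replicate 3, and Postn, at 0.62, ran from -0.057 without Adr replicate 1 to 0.98 without Adr replicate 2. The causes were not tested. Scaling by fragments counted moved the median of all genes from 0.011 to 0.067, and voom to 0.099. Depth limits the genes near 1 FPKM, such as H2bu2 on 22 fragments or fewer.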
